A study of Mus musculus with 6 samples.

Results

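The nuclear genes for the subunits of oxidative phosphorylation (OXPHOS) were followed in C2C12 cells, a mouse myoblast line that fuses into multinucleated myotubes in low serum. Members were the protein-coding genes of GENCODE release M21 whose symbols name a subunit of respiratory complexes I to V (Ndufa, Ndufb, Ndufc, Ndufs, Ndufv, Sdha to Sdhd, Uqcr, Cox4 to Cox8, Atp5), together with Cyc1 and Cycs. The rule used names and no measured value. It gave 87 genes of the 25308 genes with a count in the series, namely 35 of complex I, 4 of complex II, 9 of complex III, 20 of complex IV, 18 of complex V and the cytochrome c gene Cycs. Ndufa4 and its paralog Ndufa4l2 carry complex I names and were placed in complex IV, where the Ndufa4 protein is now known to reside. Atp5o has 2 gene models in the annotation, of which 1 held 16 counts in a single myoblast library and is left aside below.

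Polyadenylated RNA was sequenced from 2 libraries each of myotubes (Day 7 of differentiation in 2% horse serum), reserve cells (Day 7, mononucleated cells of the same cultures that did not fuse) and myoblasts (undifferentiated). All groups are the same unmodified cell line, and the study separated myotubes from reserve cells by mild trypsinization, which its methods describe as leaving few reserve cells among the myotubes. The 2 libraries of a group are called biological replicates, with nothing said of separate thaws or passages. Totals were 15658875 to 20055078 estimated counts per library, of which the members took 1.33% and 1.26% in myotubes, 0.873% and 0.840% in reserve cells and 0.937% and 0.934% in myoblasts. Myotube markers matched the labels in order. The 6 genes (Acta1, Ckm, Tnnt3, Myh3, Myl1, Mb) summed to 23476 and 23223 CPM (counts scaled to sequencing depth) in myotubes. Their sums were 6222 and 6299 in reserve cells and 135 and 128 in myoblasts, with none of the 6 at 0 in all libraries. Reserve cell libraries thus held myotube transcripts, and fewer myotubes cannot be told apart from less of these RNAs per cell in bulk RNA. The 5 fibroblast and matrix genes summed to 3475 and 3635 CPM in myotubes, 18061 and 18515 in reserve cells and 9429 and 9436 in myoblasts. Most of it came from Fn1, at 14092 and 14608 CPM in reserve cells. Fn1, Col1a1, Col3a1 and Fbn1 were highest in reserve cells. Pdgfra was highest in myoblasts, with 18.6 and 18.7 CPM, beside 10.6 and 9.58 in reserve cells and 7.82 and 8.55 in myotubes. Myoblast and satellite cell genes (5) summed to 5946 and 6000 CPM in myotubes, 2734 and 2793 in reserve cells and 2207 and 2129 in myoblasts, most of it from Des, at 5268 and 5294 CPM in myotubes, which muscle fibres also express. In that list Pax7 went the other way, with 8.75 and 11.2 CPM in myotubes. Its levels were 61.3 and 65.5 in reserve cells and 72.9 and 68.3 in myoblasts, and Myf5 was also lowest in myotubes. Myod1 was highest in myotubes, with 233 and 236 CPM, beside 169 and 190 in reserve cells and 213 and 201 in myoblasts. Cdh15 was highest in reserve cells, with 576 and 565 CPM, beside 428 and 452 in myotubes and 463 and 442 in myoblasts. The 4 neural genes summed to 17.4 and 15.8 CPM in myotubes, 29.2 and 30.9 in reserve cells and 166 and 157 in myoblasts, nearly all of it from Tubb3, since Rbfox3 and Snap25 were at 0 in every library and Syp stayed below 1 CPM. Adipocyte, endothelial and macrophage lists each stayed below 4 CPM in every library, with 4 of the 6 adipocyte genes at 0 in all.

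Oxidative phosphorylation passes electrons from NADH (complex I) and succinate (complex II) through complex III and the small carrier cytochrome c to oxygen at complex IV, and the proton gradient built on the way drives ATP synthase, complex V. Each complex except complex II joins subunits encoded in the nucleus with subunits encoded by mitochondrial DNA. Complex IV has a further layer: subunits 6a, 7a and 8 each come as an isoform found in striated muscle (Cox6a2, Cox7a1, Cox8b) and an isoform found in most tissues (Cox6a1, Cox7a2, Cox8a). The gamma subunit gene of ATP synthase, Atp5c1, is known for an exon that muscle leaves out.

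The genes whose levels separated the groups most were the muscle isoforms. The RefSeq promoter table (GRCm38.p6) holds Cox7a1 and Cox8b together with the general isoforms Cox6a1 and Cox8a, and the bases directly before their starts are shown so that promoters of genes that were higher and of genes that were lower in myotubes can be read side by side. Each runs 5′ to 3′ on the strand of its gene and ends before the outermost start of the gene in GENCODE. The regions are chr7:30183921-30184143 on the plus strand and chr7:140900447-140900696, chr5:115348982-115349208 and chr19:7217617-7217866 on the minus strand. Capitals mark matches, on either strand, to letters bound by NRF1 (GCGCATGC), ERR (AAGGTCA), ETS factors including GABP (CCGGAAG), YY1 (AAGATGGC), E-box proteins (CAGCTG) or MEF2.
Cox7a1: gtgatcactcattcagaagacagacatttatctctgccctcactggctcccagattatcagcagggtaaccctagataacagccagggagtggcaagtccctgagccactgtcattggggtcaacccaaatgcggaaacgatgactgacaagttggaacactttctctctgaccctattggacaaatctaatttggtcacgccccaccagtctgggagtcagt
Cox8b: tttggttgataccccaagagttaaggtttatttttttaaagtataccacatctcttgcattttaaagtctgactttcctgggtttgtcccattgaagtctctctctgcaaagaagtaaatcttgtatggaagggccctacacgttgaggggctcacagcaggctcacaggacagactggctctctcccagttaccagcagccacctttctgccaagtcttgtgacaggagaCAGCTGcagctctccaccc
Cox6a1: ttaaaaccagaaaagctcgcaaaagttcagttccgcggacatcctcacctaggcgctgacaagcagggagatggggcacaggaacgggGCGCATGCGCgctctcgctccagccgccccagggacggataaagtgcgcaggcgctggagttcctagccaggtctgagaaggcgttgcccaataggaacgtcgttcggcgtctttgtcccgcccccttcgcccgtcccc
Cox8a: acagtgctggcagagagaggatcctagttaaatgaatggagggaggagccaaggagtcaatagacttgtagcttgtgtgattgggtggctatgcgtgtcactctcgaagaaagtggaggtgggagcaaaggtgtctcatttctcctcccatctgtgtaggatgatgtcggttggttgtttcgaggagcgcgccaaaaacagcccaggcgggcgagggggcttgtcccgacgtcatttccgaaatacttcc

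In the bases shown, Cox8b had an E-box match, Cox6a1 had 2 overlapping NRF1 matches, and Cox7a1 and Cox8a had none. In the whole windows of the table, which run on to 50 bases after the start, Cox8b held 2 E-box matches, Cox6a1 had 1 ETS match beside its NRF1 matches, Cox8a had 2 ETS matches and Cox7a1 had 0. Across 72 promoter windows of 67 members, each from 250 bases before to 50 bases after the start, NRF1 letters stood in 15.3% against 2.71% of all 32851 windows in the table, ETS letters in 22.2% against 8.86%, YY1 letters in 12.5% against 2.75% and ERR letters in 11.1% against 4.72%. The E-box letters went the other way, with 8.33% against 16.3%. MEF2 letters stood in 0 of 72 windows against 0.557% of all, too rare for 72 windows to show a difference. A match is a description of letters, and some members have more than 1 window.

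Most OXPHOS genes were more abundant in myotubes. Of the 87 members, 81 passed the filter on low counts and were tested among 15467 genes with edgeR's quasi-likelihood test, with Benjamini-Hochberg adjustment over all genes and a threshold of 0.05. The members that did not pass were Cox4i2, Cox6b2, Cox7b2, Cox8c, Ndufa4l2 and the extra Atp5o model. Against myoblasts, 78 of the 81 rose in myotubes, where 32.7% of all genes tested rose, and 2 fell, where 32.9% of all genes fell. The median log2 fold change of the tested members was 0.94, with quartiles of 0.68 and 1.23, beside 0.00 for all genes tested. A rise of at least 2-fold was reached by 37 members (background 16.6%), and a fall of at least 2-fold by 0 (background 18.5%), with edgeR. The genes that fell were Cox8a and Cox6a1. Ndufc2 did not pass the test, at 24.1 and 20.1 CPM in myotubes and 18.3 and 19.6 CPM in myoblasts (log2 fold change 0.22, SE 0.14, adjusted p = 0.197 with edgeR).

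Myotubes also stood above reserve cells. In that comparison 78 members rose (background 27.6%), 24 of them by at least 2-fold (background 9.41%), and 2 fell (background 28.9%), none by 2-fold (background 14%). The median was 0.88 for the members and -0.01 for all genes. The 2 that fell were again Cox8a and Cox6a1, and Atp5s, which encodes the ATP synthase coupling factor B, did not pass (log2 fold change 0.32, SE 0.24, adjusted p = 0.289 with edgeR). This comparison shares its myotube libraries with the one above, so the counts are not separate evidence.

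The share of members that rose in reserve cells against myoblasts was near that of all genes, and the share that fell was somewhat lower. Of the 81 members, 21 rose (25.9%, background 24.7%) and 14 fell (17.3%, background 22.4%), with edgeR, and 46 did not pass. Only Cox6a2, Cox8b and Cox7a1 rose by at least 2-fold (background 10.5%), and 0 fell that far (background 6.35%). The median was 0.06, beside 0.01 for all genes. Without reserve cell replicate 2 or without myoblast replicate 1, the number that fell was 8 or 7 in place of 14. With factors from library totals 15 members rose and 23 fell, with a median of -0.0074, so the balance of the 2 directions depends on the scaling.

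**Figure D1:**
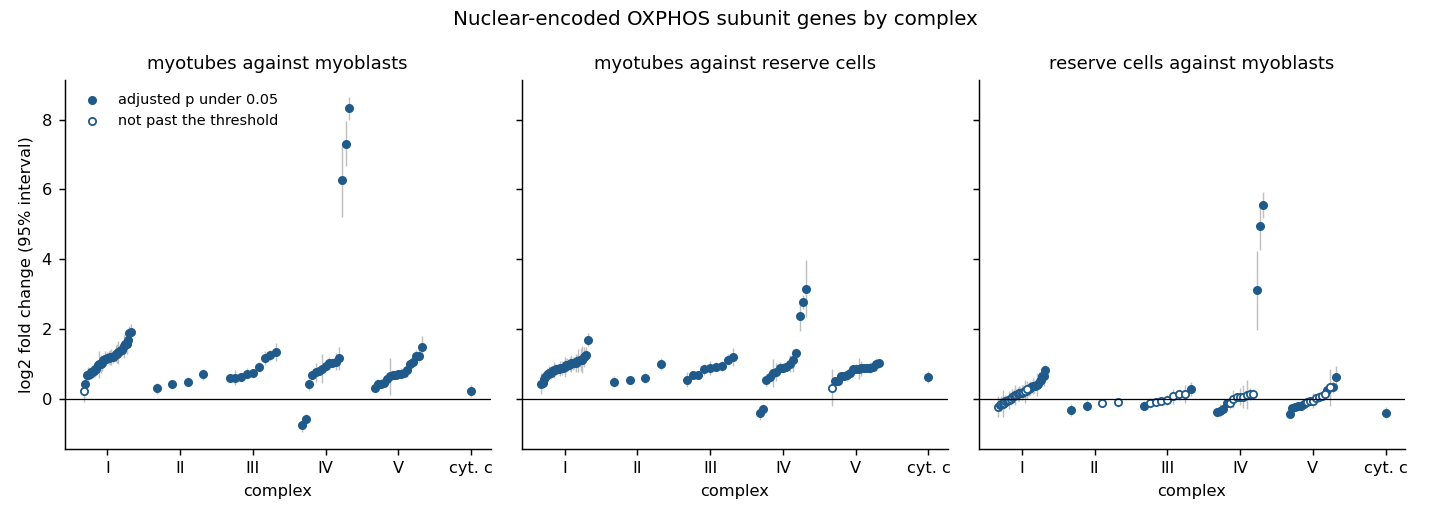
Log2 fold change of each tested member (points, with 95% intervals) by complex, in 3 comparisons. Filled points passed the edgeR test at an adjusted p under 0.05 and open points did not. In complex IV, Cox7a1, Cox8b and Cox6a2 stand apart at the top in every panel, and Cox8a and Cox6a1 lie below 0 in all 3.

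Members are short transcripts, with a median length of 837 bases where all genes tested had 2749. Among 3840 other genes of up to 1690 bases, 32.3% rose and 21.8% fell in myotubes against myoblasts, with a median log2 fold change of 0.14. Exons of 30 members overlap another gene, and for 15 of these the counts of the overlapping transcripts reached over 10% of the member's own. With those 15 left aside, 65 of 68 tested members rose in myotubes against myoblasts and 2 fell. These splits were chosen after the data were seen.

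Complex I, the NADH dehydrogenase, rose in nearly all of its genes. Against myoblasts 34 of its 35 genes rose in myotubes (background 32.7%), with a median log2 fold change of 1.17. Against reserve cells all 35 did (background 27.6%), with a median of 0.92. The lowest of the 35, Ndufc2, rose by 0.44 (adjusted p = 0.0186 with edgeR), and its call was lost under DESeq2 (adjusted p = 0.0552), with library totals (0.191), without myotube replicate 1 (0.143) and without reserve cell replicate 1 (0.0775) or 2 (0.0841). Ndufa13, an accessory subunit also known as GRIM-19, had 142 and 129 CPM in myotubes, 59.1 and 53.5 in reserve cells and 39.3 and 32.6 in myoblasts. That is a log2 fold change of 1.92 in myotubes against myoblasts (SE 0.10, adjusted p = 2.75e-09 with edgeR), the highest of the complex. Ndufs4, an accessory subunit needed for a stable NADH-oxidizing arm, had 128 and 126 CPM in myotubes, 36.7 and 41.9 in reserve cells and 34.8 and 33.8 in myoblasts. It rose by 1.89 against myoblasts (SE 0.09, adjusted p = 3.06e-10) and by 1.69 against reserve cells (SE 0.09, adjusted p = 1.79e-09), both with edgeR, while reserve cells and myoblasts differed by 0.20 (adjusted p = 0.0765).

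Ndufb7 showed another order. This accessory subunit had 185 and 181 CPM in myotubes, 105 and 96.7 in reserve cells and 55.4 and 57.8 in myoblasts, so that the 3 groups stood apart. It rose by 0.83 in reserve cells against myoblasts (SE 0.07, adjusted p = 2.67e-07 with edgeR), the highest of complex I in that comparison. Ndufs1, a core subunit with iron-sulfur clusters, rose by 1.23 in myotubes against myoblasts (SE 0.05, adjusted p = 1.23e-10 with edgeR). Exons of Ndufs1 overlap neighbouring genes, so part of its counts is uncertain. In reserve cells against myoblasts 14 genes of complex I rose (background 24.7%) and 0 fell (background 22.4%) by edgeR. The other 21 did not pass (6 of all 46 members that did not pass had an unadjusted p under 0.05).

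Complex II, succinate dehydrogenase, has 4 subunits, all nuclear, and had the smallest median log2 fold change of the 5 complexes, 0.46 in myotubes against myoblasts and 0.57 in myotubes against reserve cells. The flavoprotein Sdha had 307 and 321 CPM in myotubes, 218 and 212 in reserve cells and 232 and 234 in myoblasts. The iron-sulfur subunit Sdhb had 122 and 121 CPM in myotubes, 61.6 and 59.0 in reserve cells and 70.1 and 79.4 in myoblasts. All 4 genes rose in myotubes against myoblasts (background 32.7%), with log2 fold changes of 0.30 for Sdhc, 0.43 for Sdha, 0.50 for Sdhd and 0.70 for Sdhb. In reserve cells against myoblasts Sdhb fell by 0.31 (SE 0.08, adjusted p = 0.00545) and Sdhc fell by 0.19 (SE 0.07, adjusted p = 0.0351), with edgeR, and Sdha and Sdhd did not pass. The call for Sdhb was lost without myoblast replicate 2 (log2 fold change -0.22). That for Sdhc was lost under DESeq2 (adjusted p = 0.0665) and with protein_coding transcripts (adjusted p = 0.0686 with edgeR). The Sdhc call was also lost without reserve cell replicate 2 (-0.11) and without myoblast replicate 1 (-0.20) or 2 (-0.20). The rise of Sdhc in myotubes against myoblasts was 0.02 with library totals (adjusted p = 0.797 with edgeR).

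Complex III, cytochrome bc1, rose in all 9 genes in both comparisons of myotubes (background 32.7% against myoblasts and 27.6% against reserve cells). Uqcr11, a small subunit, had 126 and 104 CPM in myotubes, 51.9 and 48.1 in reserve cells and 50.2 and 41.0 in myoblasts (log2 fold change 1.34 against myoblasts, SE 0.12, adjusted p = 2.31e-06 with edgeR). The large core subunit Uqcrc1 rose least against myoblasts, by 0.59, and Uqcr10, another small subunit, least against reserve cells, by 0.54. Cyc1, the heme-bearing cytochrome c1, rose by 0.62 and 0.68 in those comparisons and was at -0.06 in reserve cells against myoblasts (adjusted p = 0.36 with edgeR). Between reserve cells and myoblasts, 1 gene of the complex rose (background 24.7%), Uqcrq (0.28), and 1 fell (background 22.4%), the Rieske iron-sulfur protein Uqcrfs1 (-0.19). Neither was called by edgeR without myoblast replicate 1, with log2 fold changes of 0.18 and -0.19. The call for Uqcrq was also lost without reserve cell replicate 1 (0.21). With edgeR it was lost with library totals (adjusted p = 0.0906) and with protein_coding transcripts (adjusted p = 0.0575). That for Uqcrfs1 was also lost without reserve cell replicate 2 (-0.14) or without myoblast replicate 2 (-0.21).

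Cycs, the somatic cytochrome c, followed its complexes only in part. Its levels were 113 and 113 CPM in myotubes, 76.6 and 69.8 in reserve cells and 93.0 and 99.8 in myoblasts, so that reserve cells were lowest. It fell by 0.40 in reserve cells against myoblasts (SE 0.07, adjusted p = 0.000631) and rose by 0.62 in myotubes against reserve cells (SE 0.07, adjusted p = 9.37e-06), with edgeR. Its rise in myotubes against myoblasts was 0.23 (SE 0.07, adjusted p = 0.0164 with edgeR). With factors from library totals that last value was -0.052, so its direction depends on the scaling. It was also not called without myotube replicate 2 (adjusted p = 0.0549) or without myoblast replicate 1 (adjusted p = 0.146).

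Complex V, ATP synthase, rose in all 17 tested genes in myotubes against myoblasts (background 32.7%), with a median of 0.72. The call for Atp5s (log2 fold change 0.64, adjusted p = 0.0338 with edgeR) was lost under DESeq2 (adjusted p = 0.112), with library totals (0.206), without the filter (0.0587), and in 5 of the 6 fits with a library left out (0.0502 to 0.15). Atp5b, the catalytic beta subunit, was the most abundant member per transcript length in each group, at 1848 and 1820 TPM (transcript counts divided by length and set to a common total) in myotubes, 1419 and 1488 TPM in reserve cells and 1963 and 2009 TPM in myoblasts. On the scale used for the tests it had 1916 and 1866 CPM in myotubes, 1124 and 1160 in reserve cells and 1518 and 1548 in myoblasts. Its log2 fold change in myotubes against myoblasts, 0.30 (SE 0.04, adjusted p = 5.17e-06 with edgeR), was the lowest of the complex, and with library totals it was 0.02 (adjusted p = 0.559). The order of myotubes and myoblasts for Atp5b therefore depends on the scaling. In reserve cells against myoblasts Atp5b fell by 0.42 (SE 0.04, adjusted p = 4.38e-07 with edgeR), the largest fall among the members.

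Between reserve cells and myoblasts, 3 of the 17 tested genes of ATP synthase rose (background 24.7%) and 6 fell (background 22.4%), by edgeR. Of these calls, the rise of Atp5g1 (0.25, adjusted p = 0.0293) was lost under DESeq2 (adjusted p = 0.0737), with library totals (0.118), with protein_coding transcripts (0.0532), without reserve cell replicate 1 (0.23) and without myoblast replicate 1 (0.131) or 2 (0.0891). The fall of Atp5c1 (-0.22, adjusted p = 0.00675) was lost without reserve cell replicate 2 (0.0896) or without myoblast replicate 1 (0.0554). Atp5k, the membrane subunit e, had 48.2 and 35.8 CPM in myotubes, 22.2 and 24.0 in reserve cells and 14.9 and 15.1 in myoblasts, and rose by 0.62 in reserve cells against myoblasts (adjusted p = 0.00295). Atp5d, the delta subunit of the F1 part, had 349 and 333 CPM in myotubes, 186 and 173 in reserve cells and 217 and 209 in myoblasts, and fell by 0.25 (adjusted p = 0.00175). Atp5j2, the membrane subunit f, rose most of the complex in myotubes against reserve cells, by 1.02 (SE 0.06, adjusted p = 7.1e-09 with edgeR).

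The c-ring of ATP synthase is built from 1 protein made by 3 genes, Atp5g1, Atp5g2 and Atp5g3. On the TPM scale Atp5g1 supplied 22.7% and 20.1% of the summed c-ring transcripts in myotubes, 17.6% and 15.4% in reserve cells and 13.1% and 13.5% in myoblasts. The Atp5g2 share was 28.4% and 30.8% in myotubes, 34.2% and 38.1% in reserve cells and 34.6% and 34.7% in myoblasts. Atp5g3 stayed the largest source, between 46.6% and 52.3% in the 6 libraries. Each gene rose in myotubes against myoblasts, Atp5g1 by 1.23 (SE 0.09, adjusted p = 2.52e-08), Atp5g3 by 0.57 and Atp5g2 by 0.44, with edgeR. Myotubes held the highest Atp5g1 share in both of their libraries and did not overlap the other groups.

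The 20 genes of complex IV, cytochrome c oxidase, held the widest span. Cox4i1, the general form of subunit 4, had 467 and 475 CPM in myotubes, 250 and 248 in reserve cells and 281 and 264 in myoblasts. It rose by 0.79 in myotubes against myoblasts (SE 0.05, adjusted p = 4.19e-09 with edgeR). Exons of Cox4i1 overlap Emc8, whose counts reached 15.4% of those of Cox4i1, so part of its counts is uncertain. Ndufa4 had 244 and 236 CPM in myotubes, 97.9 and 93.7 in reserve cells and 126 and 125 in myoblasts. It rose by 1.32 in myotubes against reserve cells (SE 0.06, adjusted p = 2.78e-10) and fell by 0.39 in reserve cells against myoblasts (adjusted p = 5.83e-05), with edgeR, so reserve cells were the low group. Cox6b1 and Cox7b, small subunits with no muscle form, rose by 1.06 and 1.02 in myotubes against myoblasts.

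Cox6a2, the muscle isoform of subunit 6a (chr7:128205435-128206387, minus strand), had 2197 and 2514 counts in myotubes, 474 and 393 in reserve cells and 9 and 9 in myoblasts. Its fitted log2 fold change was 8.33 in myotubes against myoblasts (SE 0.16, adjusted p = 3.61e-14), 5.56 in reserve cells against myoblasts (SE 0.17, adjusted p = 1.29e-11) and 2.77 in myotubes against reserve cells (SE 0.10, adjusted p = 4.91e-11), with edgeR. Its partner Cox6a1 had 1546 and 2001 counts in myotubes, 2931 and 2507 in reserve cells and 2923 and 3678 in myoblasts. Scaled for depth these were 110 and 116 CPM in myotubes, 148 and 130 in reserve cells and 171 and 170 in myoblasts, with no overlap between groups. Cox6a1 fell by 0.59 in myotubes against myoblasts (SE 0.07, adjusted p = 4.13e-06), by 0.29 in myotubes against reserve cells (adjusted p = 0.00215) and by 0.29 in reserve cells against myoblasts (adjusted p = 0.00269), with edgeR.

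Cox8b (chr7:140898945-140900446, minus strand) had 660 and 633 counts in myotubes, 162 and 154 in reserve cells and 2 and 8 in myoblasts. It rose by 7.31 in myotubes against myoblasts (SE 0.29, adjusted p = 1.01e-10) and by 4.94 in reserve cells against myoblasts (SE 0.31, adjusted p = 2.89e-08), with edgeR. Cox8a had 89.0 and 75.0 CPM in myotubes, 115 and 104 in reserve cells and 144 and 132 in myoblasts. It fell by 0.75 in myotubes against myoblasts (SE 0.09, adjusted p = 1.24e-05), by 0.42 in myotubes against reserve cells (adjusted p = 0.00174) and by 0.34 in reserve cells against myoblasts (adjusted p = 0.00792), with edgeR. That last call was lost without reserve cell replicate 2 (adjusted p = 0.0758) or without myoblast replicate 1 (adjusted p = 0.0684).

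Cox7a1 (chr7:30184144-30186078, plus strand) was the least abundant muscle isoform, with 233 and 219 counts in myotubes, 42 and 22 in reserve cells and 5 and 2 in myoblasts. Its log2 fold change was 6.27 in myotubes against myoblasts (SE 0.48, adjusted p = 9.41e-08 with edgeR), with a 95% interval whose lower end was 5.22. The general form, unlike Cox6a1 and Cox8a, was not lower in myotubes. Cox7a2 had 90.8 and 90.6 CPM in myotubes, 56.7 and 49.8 in reserve cells and 46.4 and 60.5 in myoblasts, and rose by 0.76 in myotubes against myoblasts (SE 0.12, adjusted p = 0.000218 with edgeR). Reserve cells and myoblasts overlapped for Cox7a2 (-0.01, adjusted p = 0.97).

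Per transcript length, the muscle form supplied 54.4% and 51.3% of the Cox6a2 and Cox6a1 sum in myotubes, 12.0% and 11.6% in reserve cells and 0.258% and 0.205% in myoblasts. For Cox8b in the sum with Cox8a the shares were 44.6% and 42.8% in myotubes, 9.80% and 10.5% in reserve cells and 0.123% and 0.424% in myoblasts. Cox7a1 supplied less of its pair, 23.2% and 18.8% in myotubes, 5.63% and 3.69% in reserve cells and 1.04% and 0.255% in myoblasts. As log2 ratios of the muscle to the general form, the difference between myotubes and myoblasts was 8.93 for subunit 6a, 5.68 for subunit 7a and 8.40 for subunit 8, with a spread over pairs of libraries of 0.22, 1.20 and 1.03. No groups overlapped in any of these 3 ratios. The ratios are given as values, with no test. An exact permutation test of 2 against 2 libraries could not go below 0.333 (two-sided).

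**Figure D2:**
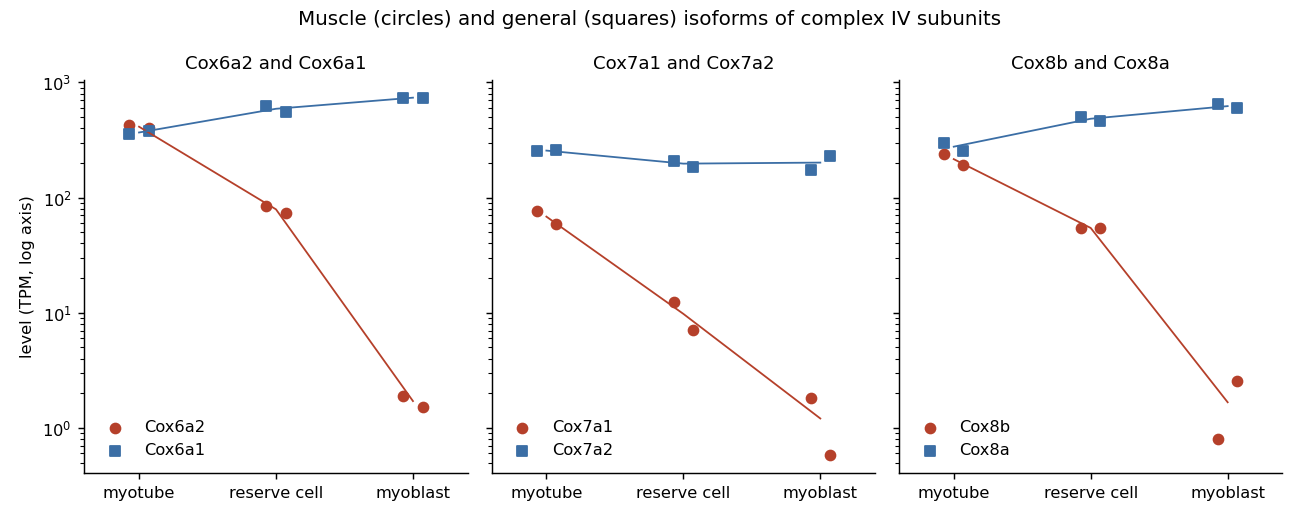
TPM on a log axis of each muscle isoform (circles) and its general partner (squares) in each library of myotubes, reserve cells and myoblasts, with lines through the group means. The pairs meet or come near each other in myotubes for subunits 6a and 8, and Cox7a1 stays below Cox7a2 in all 6 libraries.

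The muscle isoforms and the 6 myotube markers rose in each of the 3 comparisons. In myotubes against reserve cells the log2 fold changes of Cox6a2, Cox8b and Cox7a1 were 2.77, 2.37 and 3.16, beside a median of 2.09 over the markers. In myotubes against myoblasts the marker median was 7.61, where Cox6a2 stood above it at 8.33 and Cox8b and Cox7a1 below it at 7.31 and 6.27. In reserve cells against myoblasts Cox6a2 was at 5.56 and Cox8b at 4.94, beside a marker median of 5.55, and Cox7a1 was lower, at 3.11. How much of the reserve cell level came from myotubes carried over was not tested.

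The remaining paralogs were near or at the detection limit, which a count of 3 marks here. Cox4i2, a form known from lung, had 7 counts in 1 myotube library and 0 in the other 5 libraries, and Cox6b2, known from testis, had 3 counts in all. Cox7b2 had 4 counts and Cox8c had 0 counts over the 6 libraries. Ndufa4l2, a hypoxia-responsive paralog of Ndufa4 whose exons overlap Shmt2, had 9 counts. These 5 genes supplied at most 0.402% of their pairs in any library, and no difference was detectable at this depth.

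Atp5c1 and Ndufv3 were looked at by transcript, since both are known to exist with and without an optional exon. In Atp5c1 this exon has 37 bases at chr2:10056770-10056806 on the minus strand (GRCm38), exon 9 of the 10 in transcript Atp5c1-203. It brings its own stop codon, so that 7 of its bases belong to the coding end. The coding ends of the forms without it (Atp5c1-201) and with it (Atp5c1-203) are shown from the transcript sequences of GENCODE M21, with the last 15 bases of the shared exon in lower case and the bases that follow, up to and with the stop codon, in capitals.
Atp5c1-201: tggggctgctgctctGTAA
Atp5c1-203: tggggctgctgctctGGATTAA

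Transcripts with the exon took 5.75% and 6.19% of the Atp5c1 counts that could be assigned in myotubes, 19.9% and 33.3% in reserve cells and 32.3% and 48.4% in myoblasts. Myotubes lay below both other groups, and reserve cells and myoblasts overlapped. Counts with the exon were 186 and 258 in myotubes, 634 and 862 in reserve cells and 1000 and 1844 in myoblasts, while those without it were 3046 and 3911 in myotubes, 2549 and 1724 in reserve cells and 2098 and 1962 in myoblasts. The test of transcript usage within a gene in edgeR was run on an older form of its fit. The log2 difference for Atp5c1-203 in myotubes against myoblasts was -1.94 (adjusted p = 0.0726), so the shift was not called. The newer form of the fit, which the gene tests used, was tried for usage after the data were seen. It gave the same difference with an adjusted p = 0.00801. Without reserve cell replicate 2 the first fit called it (adjusted p = 0.0481).

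Ndufv3, an accessory subunit of complex I, has an optional coding exon of 1092 bases (chr17:31527310-31528401, plus strand, exon 3 of 4), and its short form lacks it. Transcripts with the exon took 15.9% and 20.7% of its assigned counts in myotubes, 43.3% and 40.7% in reserve cells and 46.1% and 52.1% in myoblasts. The long form is a longer target for reads, and per length its share was 5.56% and 7.44% in myotubes, 19.2% and 17.6% in reserve cells and 20.9% and 25.1% in myoblasts. Myotubes were lowest on both scales. The usage difference of Ndufv3-201, -0.97 in myotubes against myoblasts, was not called (adjusted p = 0.931 with edgeR's older fit). The newer fit gave an adjusted p = 0.00115.

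**Figure D3:**
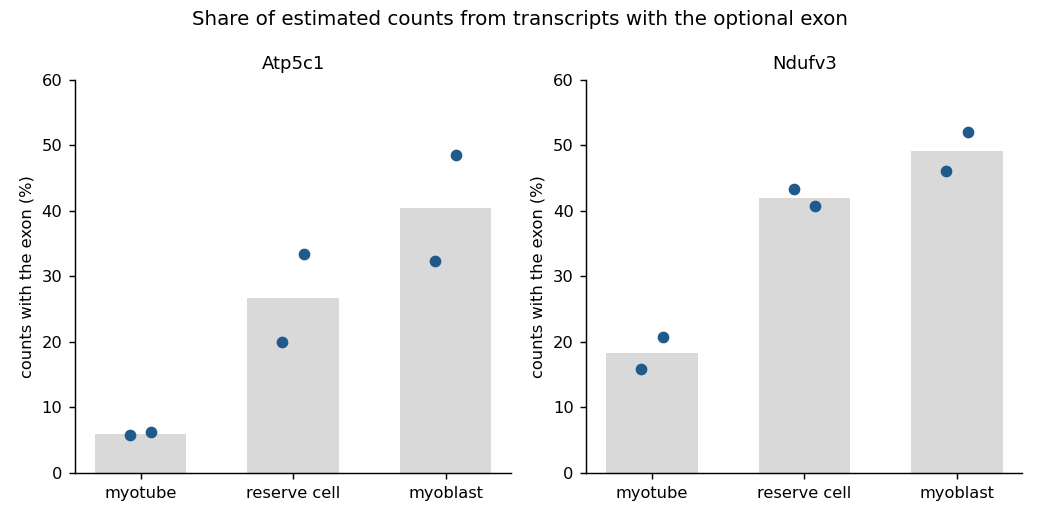
Percent of estimated counts from transcripts with the optional exon of Atp5c1 and of Ndufv3, among transcripts with or without it, in each library (points) and as group means (bars). Both myotube libraries lie below all others, between 5.75% and 6.19% for Atp5c1 and between 15.9% and 20.7% for Ndufv3.

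Over all members, 185 transcripts of 59 genes entered the usage test. In myotubes against myoblasts the older fit in edgeR called 1 (background 1.71% of 28516 transcripts). It called 0 in reserve cells against myoblasts (background 0.807%) and 0 in myotubes against reserve cells (background 0.852%). The newer fit called 12 in myotubes against myoblasts (background 6.61%, members 6.49%), 2 in reserve cells against myoblasts (background 2.81%, members 1.08%) and 8 in myotubes against reserve cells (background 3.22%, members 4.32%). The transcript called was Uqcr11-202, annotated as a processed transcript without a coding frame, with 290 and 263 counts in myotubes, 157 and 4 in reserve cells and 0 and 0 in myoblasts (adjusted p = 0.0414). The reserve cell libraries disagreed on it. Estimated transcript counts depend on how reads shared between transcripts were divided, and for that reason the exon shares carry more uncertainty than the gene levels.

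Summed on the TPM scale, the nuclear members made up 2.89% ± 0.11 of all transcripts in myotubes, and reserve cells stood at 2.10% ± 0.05 and myoblasts at 2.15% ± 0.01 (mean ± SD over 2 libraries). Complex I differed most, with 0.854% ± 0.022 for myotubes, 0.577% ± 0.020 for reserve cells and 0.500% ± 0.001 for myoblasts. Complex V made up 0.969% ± 0.027 for myotubes, 0.741% ± 0.007 for reserve cells and 0.827% ± 0.004 for myoblasts, so that reserve cells were below both other groups. Mitochondrially encoded subunits made up 8.26% ± 0.17 for myotubes, 4.20% ± 0.05 for reserve cells and 3.27% ± 0.03 for myoblasts. Their ratio to the nuclear members was 2.74 and 2.98 in myotubes, 1.95 and 2.05 in reserve cells and 1.51 and 1.54 in myoblasts, with no overlap between groups. The share and the ratio rest on part of the 13 genes. In myotubes mt-Co1 had 25467 and 26190 CPM, while mt-Co2 had 85.4 and 36.4, mt-Co3 40.4 and 41.6 and mt-Atp6 44.6 and 32.4. Lower still were mt-Nd4l (19.6 and 22.4), mt-Atp8 (9.03 and 5.76) and mt-Nd3 (3.13 and 0.814). Why these genes had few counts was not tested. By edgeR 11 of the 13 mitochondrially encoded genes rose in myotubes against myoblasts and 12 in myotubes against reserve cells, with medians of 2.01 and 1.55, and 7 rose in reserve cells against myoblasts (median 0.29), where 32.7%, 27.6% and 24.7% of all genes rose. The RNA was selected by its poly(A) tail, and its part in these levels was not tested.

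**Figure D4:**
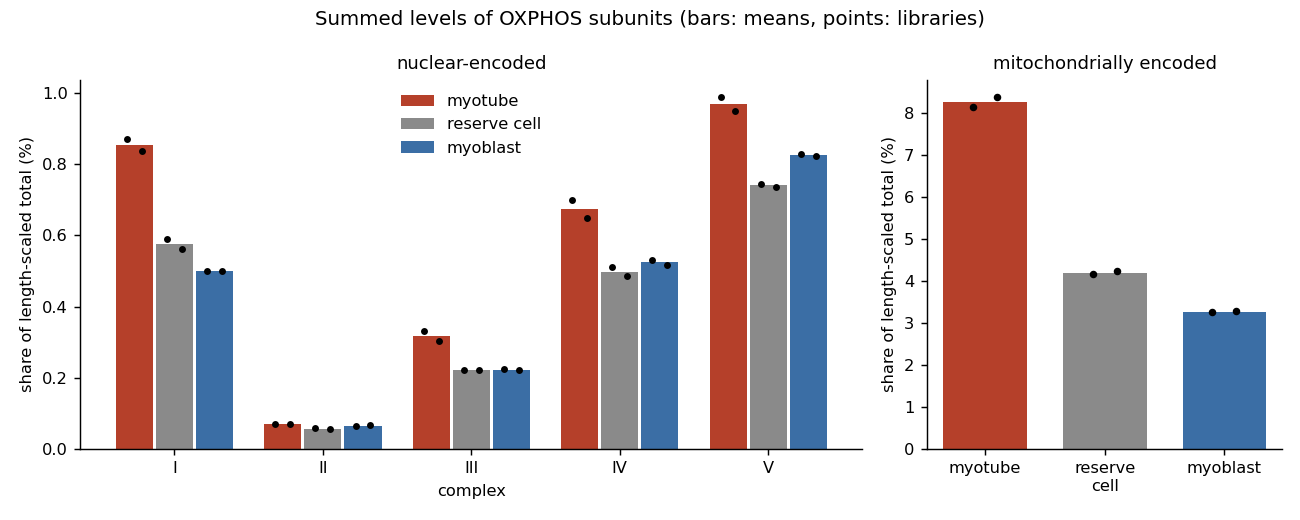
Share of the length-scaled total (TPM, in percent) held by the nuclear-encoded genes of each complex (left) and by the 13 mitochondrially encoded subunits (right), with bars for group means and points for libraries. Myotubes are highest for every complex. Reserve cells lie above myoblasts for complex I and for the mitochondrially encoded subunits but below them for complexes II, IV and V. For complex III they lie slightly below, with means of 0.221% in reserve cells and 0.223% in myoblasts.

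Genes that build the complexes had a smaller median than the subunits in both comparisons of myotubes. Their list also held Ndufab1, a subunit of complex I that the naming rule did not take in. Ndufab1 rose by 0.76 in myotubes against myoblasts (adjusted p = 3.74e-07 with edgeR). Of 54 assembly factors, 53 were tested, and by edgeR 30 rose (background 32.7%) and 0 fell (background 32.9%) in myotubes against myoblasts, with a median of 0.47 beside 0.94 for the subunits. In myotubes against reserve cells 31 rose (background 27.6%) and 0 fell (background 28.9%), with a median of 0.57 beside 0.88. In reserve cells against myoblasts 13 rose (background 24.7%) and 5 fell (background 22.4%), so the share that rose was that of all genes, and the median of 0.07 was close to the 0.06 of the subunits. Ndufaf3, an early complex I factor, rose by 1.22 in myotubes against myoblasts (adjusted p = 5.31e-05), and Coa3, a complex IV factor, by 0.75 (adjusted p = 1.49e-05). Of 19 regulators of respiratory genes, 18 were tested, and 8 rose (background 32.7%) and 4 fell (background 32.9%) in myotubes against myoblasts. Ppargc1a, a coactivator of mitochondrial genes, had 7.11 and 8.72 CPM in myotubes, 2.77 and 3.0 in reserve cells and 1.87 and 3.09 in myoblasts, and rose by 1.67 (SE 0.33, adjusted p = 0.00051 with edgeR). Nrf1 fell by 0.86 (adjusted p = 2.35e-05) and Gabpa by 0.52 (adjusted p = 1.62e-05) in the same comparison, and Tfam, which packages mitochondrial DNA, was at 0.12 (adjusted p = 0.288). Mef2c reached 1173 and 1210 CPM in myotubes, beside 237 and 248 in reserve cells and 1.05 and 0.968 in myoblasts. Mef2a (553 and 587 CPM) and Mef2d (404 and 426 CPM) were also highest in myotubes. Between reserve cells and myoblasts 5 regulators rose (background 24.7%) and 2 fell (background 22.4%). Against reserve cells, 10 rose in myotubes (background 27.6%) and 3 fell (background 28.9%).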

How the data were processed

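RNA-seq libraries of C2C12 myotubes, reserve cells and myoblasts (2 each) were compared. The authors mapped paired reads of 150 bases to mm10 with HISAT2, filtered alignments with SAMtools and estimated transcript levels in StringTie, depositing an estimated count per transcript and library. Their differential expression used DESeq2. Program versions and the gene annotation are not given in sources used here. The deposited estimated counts are whole numbers and carry no scaling for depth.

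Transcripts were paired with genes through GENCODE M21 (141374 of 142604 found a gene) and summed. Genes were tested with edgeR 4.0.16 under R 4.3.3 (TMM factors after filterByExpr at a minimum of 10 counts, robust glmQLFit and glmQLFTest on all 6 libraries, common dispersion 0.0166). Transcript usage was tested with diffSpliceDGE on the older (legacy) form of glmQLFit, without the robust setting. The gene tests used the newer form, the default. CPM are TMM-scaled, and TPM divide counts by transcript length. The procedure was tested on simulated data. Members and lists were chosen with earlier results of these data known. Genes named are those of the isoform pairs, Cyc1, Cycs, Sdha to Sdhd, Atp5c1 and Ndufv3, the highest and lowest of each complex, the 5 smallest adjusted p per comparison and up to 8 called against the majority. A gene that this rule names is not reported here. Of the list genes, those named were chosen after their values were seen. Alternatives were DESeq2 1.42.0, RLE factors, library totals, no filter, a 10 CPM filter, separate fits, a replicate block, protein_coding transcripts, no mitochondrially encoded genes, and each library left out.

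The replicate numbers do not pair the samples. Promoters are from RefSeq (GRCm38.p6), where 67 of the 86 member symbols were found.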

Additional observations from a re-analysis of the deposited data

How the results depend on the processing

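The counts of members that rose in myotubes were 72 to 78 against myoblasts and 75 to 78 against reserve cells under the 15 alternatives, and 15 to 25 rose in reserve cells against myoblasts. In myotubes 2 or 3 members fell against myoblasts and 2 against reserve cells. Library totals moved the median of all genes to -0.27 in myotubes against myoblasts and -0.21 in myotubes against reserve cells. The members' medians were then 0.66, 0.67 and, in reserve cells against myoblasts, -0.0074, where 15 members rose and 23 fell, and Cycs was at -0.052 in myotubes against myoblasts. Among all calls, 36.5% were then higher in myotubes against myoblasts in place of 49.9%, and 34.3% in myotubes against reserve cells in place of 48.9%. Leaving out each library gave medians of 0.85 to 0.98 (myotubes against myoblasts), 0.015 to 0.105 (reserve cells against myoblasts) and 0.821 to 0.913 (myotubes against reserve cells), and 7 to 14 members that fell in reserve cells against myoblasts. Replicate numbers were only names: same-numbered libraries deviated together with r of -0.03 to 0.05, and with the replicate block 78 members rose and 2 fell in both comparisons of myotubes, and 22 rose and 14 fell in reserve cells against myoblasts. Having 2 libraries per group limits small fold changes most, and Cox7a1 and Cox8b rest on few myoblast counts.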

Other observations

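Partners of the OXPHOS machinery were counted in the same fit, namely carriers of ATP and phosphate, Vdac genes, mitochondrial creatine kinases and uncoupling proteins. The list also held Cs, Tomm20, Timm23, Cyct and Higd1b. Of the 17 listed genes 12 were tested. By edgeR with Benjamini-Hochberg adjustment 9 rose (background 32.7%) and 1 fell (background 32.9%) in myotubes against myoblasts. In myotubes against reserve cells 10 rose (background 27.6%) and 0 fell (background 28.9%). In reserve cells against myoblasts 3 rose (background 24.7%), a share like that of all genes, and 6 fell (background 22.4%). Ckmt2, the mitochondrial creatine kinase of striated muscle, had 7.11 and 7.56 CPM in myotubes, 1.51 and 1.35 in reserve cells and 0 in both myoblast libraries. Ucp3, an uncoupling protein of muscle, had 5.05 and 4.13 CPM in myotubes, 1.41 and 0.725 in reserve cells and 0 in both myoblast libraries. Slc25a4, the ADP/ATP carrier of muscle and heart, had 447 and 449 CPM in myotubes, 332 and 314 in reserve cells and 372 and 367 in myoblasts. Slc25a5, the general carrier, did not pass in any comparison, with 337 and 322 CPM in myotubes, 338 and 324 in reserve cells and 339 and 341 in myoblasts. Cs, citrate synthase, was at 0.01 on the log2 scale in myotubes against myoblasts (adjusted p = 0.913) and fell by 0.69 in reserve cells against myoblasts (adjusted p = 1.86e-08), with edgeR.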
